A study of Mus musculus with 20 samples.

Results

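Of 20 libraries deposited as near-term mouse heart, 3 were rich in lung transcripts and 17 carried heart transcripts with almost none from lung. The sides were set by Sftpc, the gene of surfactant protein C (chr14:70520942-70524081, minus strand, mm10), on a scale of CPM, each library's counts scaled to a common total of 1000000. A library with more than 1000 CPM was taken as lung-rich and one with less than 10 CPM as heart. Sftpc was at 10183 CPM in the library labelled control male 4, 11787 CPM in that labelled obese male 1 and 5523 CPM in that labelled control female 4. Just below the limit it ran from 0 to 6.77 CPM over the heart libraries, with a median of 0.850 CPM, and the highest of them was control male 3, the shallowest library. These Sftpc values chose the sides, so every difference between the sides below is a description and was not tested.

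The fetuses were C57BL/6J mice at stage E18.5, shortly before birth. Their dams entered the diets at 12 weeks of age, and control or obese in a library's name refers to the dam. Control dams ate a diet with 10% of calories from fat, while obese dams ate one with 40% of calories from fat, drank 20% sucrose and were mated after gaining 25% in weight. Sires ate the control diet, and each combination of diet and sex had 5 libraries. All 20 libraries are labelled fetal heart, and the labels name no other tissue. The heart side held 4 control male, 4 control female, 4 obese male and 5 obese female libraries. The titles of control male 4 and control female 4 begin with the same number, 51, and that of obese male 1 begins with 384, as does that of obese female 1 on the heart side. The labels do not explain these numbers.

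Just before birth the distal lung is lined by type 2 cells, which make surfactant, the lipid and protein film that keeps the air spaces open, and by flat type 1 cells, across which gas will pass. Secretory and ciliated cells line the airways, and a mesenchyme marked by Tbx4 and Foxf1 surrounds the epithelium. The homeodomain protein NKX2-1 specifies lung epithelium, while its relative NKX2-5 acts in heart muscle. Heart muscle cells carry sarcomeres, the contractile units of myosin and actin filaments, and draw most of their energy from mitochondria.

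Both relatives can bind short sites that contain the letters CAAG, and sites without these letters were not searched. The sequences below are the 250 bases before the transcription start of a pair of surfactant genes and a pair of atrial muscle genes, shown because the data hold high levels of the first pair in the lung-rich libraries and of the second in heart, where Nkx2-1 and Nkx2-5 were high in turn. Sftpa1 and Sftpb met the rule for a call given below, and Nppa and Myl7 did not, since the library that held both tissues lay within their heart ranges. They come from RefSeq on build GRCm38.p6, read 5′ to 3′ on the gene's own strand, and capitals mark CAAGTG or CTCAAG on either strand, the 2 forms searched, which share 4 letters and can overlap in one match. The regions are chr14:41131538-41131787 (plus strand) for Sftpa1, chr6:72304360-72304609 (plus) for Sftpb, chr4:148000472-148000721 (plus) for Nppa and chr11:5898783-5899032 (minus) for Myl7.
Sftpa1: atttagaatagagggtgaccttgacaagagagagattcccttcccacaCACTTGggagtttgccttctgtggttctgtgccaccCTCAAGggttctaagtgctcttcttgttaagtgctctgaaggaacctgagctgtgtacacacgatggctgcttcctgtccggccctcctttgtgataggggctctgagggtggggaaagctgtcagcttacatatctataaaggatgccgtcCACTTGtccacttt
Sftpb: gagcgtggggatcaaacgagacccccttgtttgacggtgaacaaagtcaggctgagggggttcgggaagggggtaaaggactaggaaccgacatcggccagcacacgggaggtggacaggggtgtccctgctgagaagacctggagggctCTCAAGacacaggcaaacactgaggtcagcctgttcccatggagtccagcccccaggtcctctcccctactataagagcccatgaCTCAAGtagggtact
Nppa: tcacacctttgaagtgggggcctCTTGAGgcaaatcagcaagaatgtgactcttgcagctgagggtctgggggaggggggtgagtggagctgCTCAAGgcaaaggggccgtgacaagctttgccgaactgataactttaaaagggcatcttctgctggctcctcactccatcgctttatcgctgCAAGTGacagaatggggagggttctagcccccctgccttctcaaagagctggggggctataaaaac
Myl7: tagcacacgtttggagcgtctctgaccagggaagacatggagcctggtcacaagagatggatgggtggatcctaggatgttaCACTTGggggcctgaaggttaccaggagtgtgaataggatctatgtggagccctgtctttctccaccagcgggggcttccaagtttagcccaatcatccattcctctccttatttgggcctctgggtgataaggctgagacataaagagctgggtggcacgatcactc
Sftpa1 held a CAAGTG 14 bases before its start and another 202 bases before it, with a CTCAAG 166 bases before it. Sftpb held a CTCAAG 15 and 100 bases before its start. Nppa also held both forms and Myl7 held CAAGTG. Matches of this kind were common, since 22.6% of the 32851 promoters of the same length in the table held one or the other, CAAGTG in 11.6% and CTCAAG in 13.3%. Counted by gene, 6846 of 27025 had a match. Of the listed surfactant and type 2 cell genes, 14 had a promoter in the table and 3 of these held a match. The other lists searched had 7 of 11 airway secretory genes, 5 of 14 type 1 cell genes, 5 of 12 thick filament genes, 7 of 25 thin filament and Z disc genes and 7 of 16 atrial genes. A match describes these letters and is not a measured binding site.

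Lung markers and heart muscle markers separated the libraries into 2 sets and 1 library that carried both. Nkx2-1 (chr12:56531935-56536908, minus strand) was at 506 CPM in control male 4, 545 in obese male 1 and 277 in control female 4, against 0 to 0.677 (median 0) in the heart libraries. Secretoglobin Scgb1a1, made by airway club cells, was at 344 CPM in control male 4, 904 in obese male 1 and 233 in control female 4, against 0 to 0.485 (median 0) in the heart libraries. Myh6, the adult form of cardiac myosin heavy chain (chr14:54941921-54966607, minus strand), was at 105 CPM in control male 4, 115 in obese male 1 and 5595 in control female 4, against 6679 to 13336 (median 11609) in the heart libraries. Control male 4 and obese male 1, called the lung pair below, thus held about 1% of the heart level of Myh6, and control female 4, called the mixed library, held lung and heart transcripts together. Myl2, the ventricular regulatory light chain, stood at 2.67 and 1.93 CPM in the lung pair and 2895 CPM in the mixed library, against 5197 to 8718 CPM (median 7381) in heart. In bulk tissue, fewer cells of a type and less RNA in each cell cannot be told apart.

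**Figure D1:**
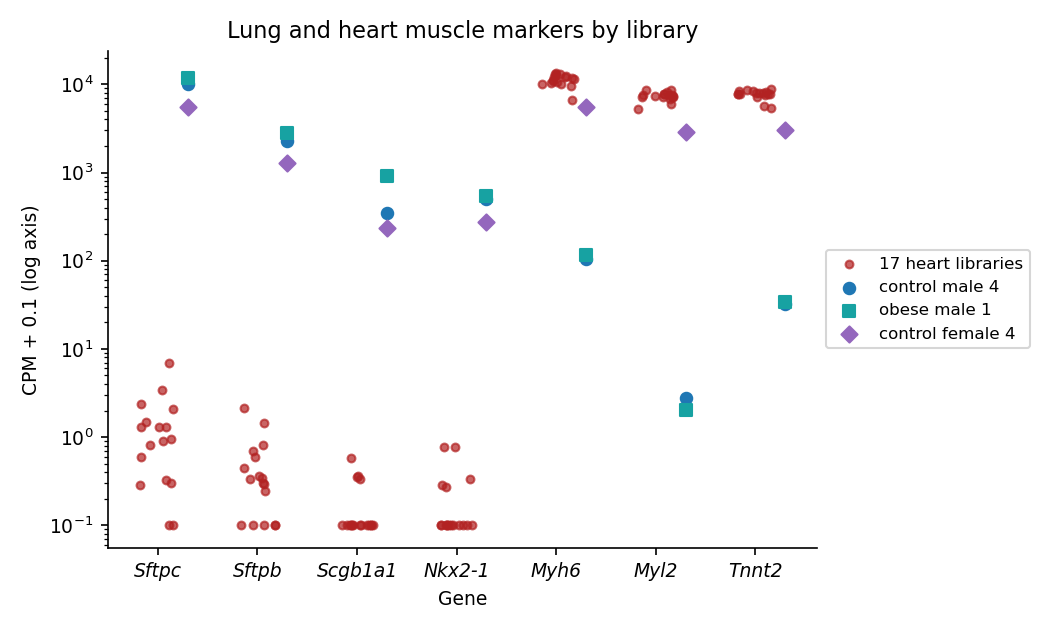
CPM plus 0.1 on a log axis for 4 lung and 3 heart muscle markers, with 1 point per library (17 heart libraries as small circles, the 3 lung-rich libraries as named symbols). Lung markers of the 3 lung-rich libraries lay above those of each heart library, and the mixed library control female 4 lay just below the heart libraries for Myh6, Myl2 and Tnnt2 while the lung pair lay far below them.

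Totals of the lung-rich libraries, 2.91, 3.63 and 4.50 M estimated counts, lay within the 1.48 to 7.06 M of the heart libraries. More genes reached 1 CPM in the lung-rich libraries (14102 to 14430) than in heart (13083 to 13898). The 10 most abundant genes took 5.21 to 6.05% of the counts in the lung-rich libraries and 6.88 to 11.7% in heart. On the heart side, control female 3 was rich in liver transcripts and control female 5 in thymus transcripts, with summed liver markers at 73888 CPM and summed thymus markers at 2220 CPM.

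A gene was called higher on one side when its libraries did not overlap with those of the other side and the medians differed at least 2-fold. Of 13764 genes passing the filter on low counts, 2272 (16.5%) were called higher in the lung-rich libraries and 1209 (8.78%) higher in heart. These shares are the background for the counts of each list, and since the rule used this contrast nothing is read from their excess. The median gene stood 0.23 higher in the lung-rich libraries on the log2 CPM scale, and 0.03 higher after TMM scaling, under which 1810 genes were called higher in lung-rich libraries and 1593 in heart. DESeq2 size factors gave 1802 and 1607, and 1852 and 1559 came from the deposited normalized values. A gene can pass the filter through its high side alone, so counts are given over members that passed.

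**Figure D2:**
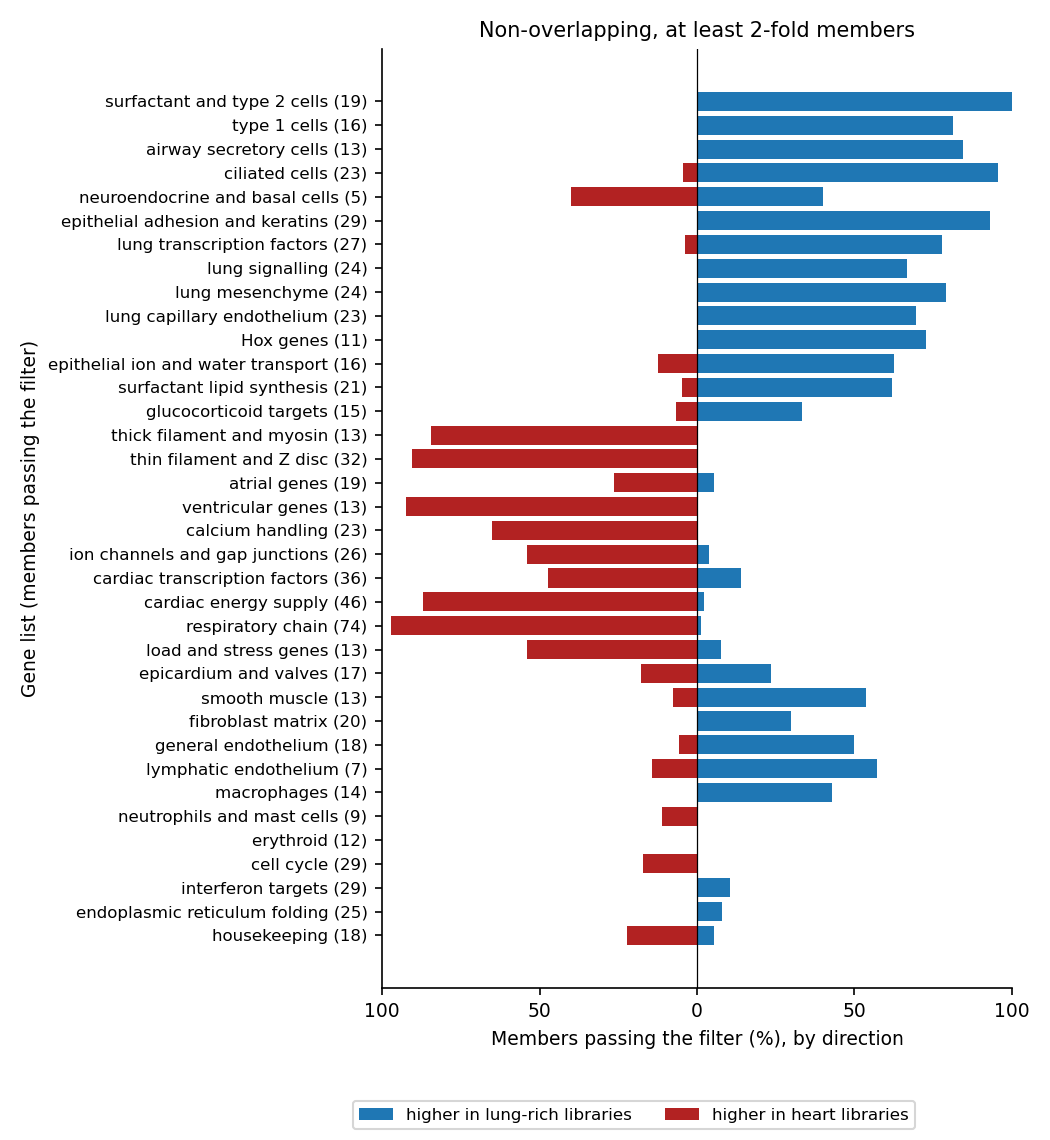
Percent of the members passing the filter that were called higher in the lung-rich libraries (right) or in heart (left), by gene list, with the number of members passing in brackets. Lists of lung epithelium reach to the right and lists of heart muscle and mitochondria to the left, while erythroid genes had no call on either side.

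Nearly all of the genes with the largest folds were members of those lists. The lists were chosen with earlier results of these data known, so nothing is read from this membership. Among called genes with a median of at least 50 CPM on the higher side, the 25 with the largest fold of medians in the lung-rich libraries began with Sftpc, Slc34a2, Sftpb, Cxcl15 and Sftpa1, and all but Mal2, a membrane traffic protein of polarised epithelium, were list members. Mal2 was at 305 CPM in control male 4, 289.8 in obese male 1 and 181 in control female 4, against 0.446 to 9.28 (median 1.06) in the heart libraries. The 25 with the largest fold in heart began with Myl2, Myl3, Mb, Pln and Mybpc3, and those outside the lists were Bves and Popdc2, members of 1 family of membrane proteins of striated muscle. Popdc2 was at 3.56 CPM in control male 4, 4.41 in obese male 1 and 278 in control female 4, against 539.5 to 869.5 (median 747) in the heart libraries.

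Surfactant and type 2 cell genes include Sftpc, which set the sides. Of 20 listed genes 19 passed the filter and these were called higher in the lung-rich libraries, but 13 of the listed genes had a heart median under 1 CPM, so they could pass through the lung-rich side alone. Sftpb (chr6:72304610-72314373, plus strand), whose protein spreads the surfactant lipids, was at 2302 CPM in control male 4, 2836 in obese male 1 and 1282 in control female 4, against 0 to 2.03 (median 0.239) in the heart libraries. Sftpa1, the gene of a surfactant collectin that also binds microbes, was at 997 CPM in control male 4, 1402 in obese male 1 and 598 in control female 4, against 0 to 0.677 (median 0.142) in the heart libraries. Both lay above 500 CPM in each lung-rich library and near 0 in heart. Sftpd, the other collectin, was at 267 CPM in control male 4, 460.2 in obese male 1 and 145 in control female 4, against 0 to 0.727 (median 0) in the heart libraries, and 12 of the 17 heart libraries had no count. Genes of surfactant processing and storage stood the same way, among them Napsa, a protease that trims the surfactant proteins (439, 423 and 225 CPM against at most 6.63) and Lamp3, of the lamellar body membrane (686, 799.9 and 456 CPM against at most 2.03). Slc34a2, the phosphate transporter of type 2 cells, was at 2476 CPM in control male 4, 3366 in obese male 1 and 1663 in control female 4, against 0 to 0.970 (median 0.332) in the heart libraries. The lipid pump Abca3, which loads surfactant lipid into lamellar bodies, differed by degree, since heart held 21.4 to 38.5 CPM (median 28.9), and its median was 24.5-fold higher in the lung-rich libraries.

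Lipid synthesis genes used for surfactant were higher for 13 of 21 members passing, with 1, Lpl, higher in heart. Scd1, a desaturase of fatty acids, was at 1419 CPM in control male 4, 1169 in obese male 1 and 908 in control female 4, against 6.08 to 96.5 (median 13.7) in the heart libraries. Lpcat1, which remodels phosphatidylcholine for surfactant, had a median 33.4-fold higher, and Fasn, the fatty acid synthase, one 4.94-fold higher. Lpl, the lipase that frees fatty acids from circulating triglyceride, stood at 81.6, 137 and 434 CPM in the lung-rich libraries and 698 to 1277 CPM (median 928) in heart. The list thus held genes of both directions, and Fabp5, a fatty acid carrier, overlapped between the sides (204, 208 and 206 CPM against 192 to 486).

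Type 1 cell genes were higher in the lung-rich libraries for 13 of 16 members, and the other 3 overlapped. Ager, the receptor that marks the basal membrane of type 1 cells, was at 1518 CPM in control male 4, 1801 in obese male 1 and 838 in control female 4, against 1.13 to 4.25 (median 3.10) in the heart libraries. Cldn18, a tight junction protein of the alveolus, was at 965 CPM in control male 4, 902 in obese male 1 and 507 in control female 4, against 0 to 0.995 (median 0) in the heart libraries. Aqp5, a water channel, was at 112, 114 and 69.7 CPM and at most 1.94 CPM in heart. Hopx, used as a type 1 cell marker but also a regulator in heart muscle, did not separate the sides (503, 485 and 461 CPM against 351 to 511 CPM, median 468), nor did Lmo7, which links actin to cell junctions (444, 553 and 564 CPM against 440.2 to 608 CPM, median 564).

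Airway genes covered secretory and ciliated cells. Of the secretory list 13 of 16 members passed and 11 were higher in the lung-rich libraries. Scgb3a2, a secretoglobin of the fetal airway, was at 553 CPM in control male 4, 826 in obese male 1 and 342 in control female 4, against 0 to 1.21 (median 0) in the heart libraries. Cyp2f2, a cytochrome P450 of club cells, was at 241 CPM in control male 4, 335 in obese male 1 and 152 in control female 4, against 0 to 3.98 (median 0) in the heart libraries. For both genes obese male 1 was the highest library and the mixed library the lowest of the 3. Bpifa1, a secreted protein of the upper airway, had no count in the lung-rich libraries.

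The ciliated list had 22 of 23 members passing called higher in the lung-rich libraries. Foxj1, the regulator of motile cilia, was at 106 CPM in control male 4, 112 in obese male 1 and 67.6 in control female 4, against 0 to 1.70 (median 0.497) in the heart libraries. Dnah5, a motor of the ciliary outer arm, was at 14.5, 18.8 and 10.6 CPM and at most 0.201 CPM in heart, and Dynlrb2, a dynein light chain, was at 24.9, 22.1 and 8.23 CPM with no count in any heart library. The exception was Mlf1, expressed in cilia and in muscle, which was higher in heart (19.1, 22.3 and 120.4 CPM in the lung-rich libraries against 188 to 306 CPM, median 281). Neuroendocrine and basal cells left few traces. Of 14 markers 5 passed and 2 were called higher in the lung-rich libraries, with 1 under each other scaling, and 2 higher in heart. Krt15, a basal keratin, was at 56.7, 33.4 and 39.5 CPM against at most 0.727 CPM, whereas Krt5, the defining basal keratin, had no count in the lung-rich libraries and Chga, a neuroendocrine granule protein, had at most 0.827 CPM there.

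Genes of epithelial adhesion and keratins were higher in the lung-rich libraries for 27 of 29 members passing. Cdh1, E-cadherin, was at 504 CPM in control male 4, 484 in obese male 1 and 319.8 in control female 4, against 0 to 37.8 (median 1.01) in the heart libraries. Epcam, an epithelial adhesion molecule, was at 109 CPM in control male 4, 109 in obese male 1 and 57.6 in control female 4, against 0 to 16.97 (median 0.248) in the heart libraries. In both cases the highest heart value was far above the heart median. The members that overlapped were the keratin Krt18 (190.3, 216 and 106 CPM against up to 179 CPM) and the integrin Itgb4 (20.9, 33.1 and 18.2 CPM against up to 22.1 CPM). Esrp1, a splicing factor of epithelial cells, was at 56.0, 50.5 and 34.3 CPM against at most 6.30 CPM.

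Ion and water transport turns from secretion to absorption of lung fluid around birth, through the epithelial sodium channel ENaC. The 3 ENaC subunit genes were higher in the lung-rich libraries. Scnn1a was at 395 CPM in control male 4, 606 in obese male 1 and 243 in control female 4, against 1.17 to 9.21 (median 2.69) in the heart libraries. Scnn1b was at 50.02, 65.9 and 28.5 CPM against at most 3.97 CPM and Scnn1g at 113, 155 and 65.9 CPM against at most 3.02 CPM. Cftr, the chloride channel used in fluid secretion, was at 32.9, 29.8 and 26.1 CPM against at most 1.35 CPM. Across the list 10 of 16 members passing were higher in the lung-rich libraries. Among the members higher in heart was Kcnq1, a potassium channel of heart muscle (18.01, 24.5 and 38.4 CPM in the lung-rich libraries against 63.3 to 110.3 CPM, median 93.1).

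Glucocorticoids from the fetal adrenal drive lung maturation before birth, and 5 of 15 genes of the glucocorticoid list were higher in the lung-rich libraries, with 1 higher in heart. Nr3c1, the receptor itself, was at 173 CPM in control male 4, 178 in obese male 1 and 145 in control female 4, against 60.9 to 79.5 (median 68.0) in the heart libraries. Hsd11b1, which regenerates active glucocorticoid, was at 192 CPM in control male 4, 222 in obese male 1 and 108 in control female 4, against 0.677 to 39.1 (median 2.37) in the heart libraries. Sgk1, a kinase induced by glucocorticoid, overlapped between the sides (58.9, 64.5 and 63.5 CPM against 51.1 to 133 CPM, median 73.1), and Mt1, a metallothionein, was higher in heart (57.4, 61.2 and 70.7 CPM in the lung-rich libraries against 99.4 to 202 CPM, median 148).

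Of 27 lung transcription factors 21 were higher in the lung-rich libraries and 1 in heart. Nkx2-5 was at 0.445 CPM in control male 4, 0.276 in obese male 1 and 57.6 in control female 4, against 115 to 191 (median 156) in the heart libraries, the reverse of Nkx2-1. In the T-box family, Tbx4, of lung and limb mesenchyme, was at 276 CPM in control male 4, 283 in obese male 1 and 149 in control female 4, against 0 to 0.853 (median 0) in the heart libraries. Tbx20, of the cardiac list, was at 7.34 CPM in control male 4, 2.21 in obese male 1 and 183 in control female 4. The heart libraries held 212 to 416 CPM of it (median 356). Tbx2, another mesenchymal member, was at 723 CPM in control male 4, 740.4 in obese male 1 and 393 in control female 4, against 23.2 to 34.04 (median 26.04) in the heart libraries, and Tbx5, active in both organs, was at 179, 176 and 132 CPM against 32.2 to 128 CPM (median 82.7). Tbx20 thus stood against Tbx4, Tbx2 and Tbx5. Of the other listed members, Tbx18 was lower in the lung pair (0.445 and 0.552 CPM against 19.2 to 40.4 CPM in heart). Tbx3 was higher there (217 and 232 CPM against 18.6 to 31.3 CPM in heart). Among GATA factors, Gata4 was at 2.22, 3.86 and 131 CPM against 260.2 to 381 CPM (median 329) and Gata6, needed in both organs, was higher in heart by less (93.4, 101 and 162 CPM against 202 to 361 CPM, median 289). Gata5 went the other way, at 41.4, 34.7 and 22.3 CPM against 1.66 to 5.97 CPM (median 3.79).

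The Iroquois genes held members of both directions. Irx1 was at 164, 191 and 83.0 CPM in the lung-rich libraries and 13.3 to 27.4 CPM (median 20.3) in heart, and Irx2, Irx3 and Irx5 had medians 3.56, 3.40 and 3.56-fold higher in the lung-rich libraries. Irx4, the ventricular member, had no count in the lung pair and 43.2 CPM in the mixed library, against 75.7 to 148 CPM (median 125) in heart. With a limit of 3 counts per library, the heart median of Irx4 was at least 151-fold higher than the lung pair. Foxa1 and Foxa2, pioneer factors of endodermal epithelium, were at 85.6, 90.7 and 48.0 CPM and 64.7, 62.3 and 30.2 CPM, with heart medians of 0 for both. Sox9, of the growing lung tips and of heart valves, fell short of 2-fold (44.2, 41.1 and 37.4 CPM against 17 to 37.2 CPM, median 26.7), and Etv4, Mycn, Nfia and Nfib were not called either.

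Hox genes near the anterior end of the A and B clusters were higher in the lung-rich libraries. Of 39 Hox genes 11 passed the filter, and 8 of these were called, namely Hoxa2 to Hoxa5 and Hoxb2 to Hoxb5. Hoxa5, required for lung and airway formation, was at 108 CPM in control male 4, 99.8 in obese male 1 and 56.6 in control female 4, against 0 to 2.56 (median 0.531) in the heart libraries. Hoxb5 was at 24.5, 23.7 and 18.2 CPM against at most 2.64 CPM. Genes further along the clusters had low counts, and Hoxa11 and Hoxc9 had none in the lung-rich libraries, while single heart libraries reached 5.48 CPM for Hoxa10 and 4.91 CPM for Hoxb9. The summed Hox list was at 304, 309 and 184 CPM in control male 4, obese male 1 and control female 4, and among the heart libraries obese female 3 stood highest at 78.4 CPM against a heart median of 14.8 CPM.

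Signals of lung branching and their targets were higher in the lung-rich libraries for 16 of 24 members passing. Shh, the hedgehog ligand of lung epithelium, was at 84.3 CPM in control male 4, 73.1 in obese male 1 and 43.6 in control female 4, against 0 to 0.378 (median 0) in the heart libraries. Its mesenchymal readouts stood the same way, with medians 5.62-fold higher for the receptor Ptch1 and 14.1-fold higher for the transcription factor Gli1, and Hhip, a hedgehog inhibitor, at 281, 292 and 163 CPM against at most 3.61 CPM. Fgf10, the mesenchymal growth factor of branching, was at 65.8, 78.3 and 41.9 CPM against at most 1.94 CPM. Of the Wnt ligands, Wnt2 was at 63.4, 51.3 and 31.2 CPM against 0.944 to 2.72 CPM, Wnt2b overlapped, and Axin2, a target of Wnt signalling, had a median 17.97-fold higher. Spry2, an inhibitor of FGF signalling, also overlapped (58.2, 65.4 and 62.4 CPM against 45.4 to 64.2 CPM, median 57.1).

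Lung mesenchyme genes were higher in the lung-rich libraries for 19 of 24 members passing, and the other scalings added 1 call in heart. Foxf1 was at 298 CPM in control male 4, 270.2 in obese male 1 and 158 in control female 4, against 0 to 2.03 (median 0.756) in the heart libraries. Tcf21, of lung and heart fibroblast precursors, had a median 9.85-fold higher (387, 413 and 238 CPM against 24.8 to 56.2 CPM, median 39.3). Npnt, a ligand of integrin alpha 8 in the basement membrane, was at 759.7 CPM in control male 4, 906 in obese male 1 and 499 in control female 4, against 3.73 to 25.7 (median 7.74) in the heart libraries. Lum, a collagen-binding proteoglycan, ran the other way without passing, since the mixed library at 56.6 CPM lay above the lowest heart library (49.7 CPM) while the lung pair had 6.45 and 4.69 CPM.

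Capillary endothelium genes of the lung were higher in the lung-rich libraries for 16 of 23 members. Prx, periaxin of lung capillaries, was at 307 CPM in control male 4, 418 in obese male 1 and 206 in control female 4, against 4.74 to 16.2 (median 8.50) in the heart libraries. Car4, a carbonic anhydrase of the gas-exchange capillaries, was at 33.3, 54.6 and 21.6 CPM against at most 5.86 CPM, and Calcrl, a receptor of adrenomedullin, had a median 9.25-fold higher. Aplnr, the apelin receptor of general capillary cells, was at 241 CPM in control male 4 but 141 CPM in obese male 1, against a heart median of 69.8 CPM. Fendrr, a long RNA transcribed beside Foxf1, was at 261, 293 and 154 CPM against at most 2.98 CPM.

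In the opposite direction, contractile genes were higher in heart for 11 of 13 thick filament members and 29 of 32 thin filament and Z disc members passing. Tnnt2, troponin T of the thin filament, was at 32.5 CPM in control male 4, 34.2 in obese male 1 and 3073 in control female 4, against 5421 to 8882 (median 7832) in the heart libraries. Actc1, cardiac actin, was at 82.3 CPM in control male 4, 88.5 in obese male 1 and 7058 in control female 4, against 10456 to 17514 (median 15750) in the heart libraries. Ttn, the spring protein of the sarcomere, was at 16.2 CPM in control male 4, 18.8 in obese male 1 and 1395 in control female 4, against 2175 to 3286 (median 3063) in the heart libraries. The lung pair lay under 1% of the heart median for these 3 genes. Tpm1, a tropomyosin that smooth muscle also uses, retained more (593 and 583 CPM in the lung pair, 11.96 and 11.76% of the heart median). Nebl, a Z disc protein, overlapped through the mixed library. Palld, an actin crosslinker of many cell types, overlapped in the lung pair as well (374, 406 and 513 CPM against 391 to 603 CPM, median 541).

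Ventricular genes were higher in heart for 12 of 13 members, but atrial genes for 5 of 19. Nppb, the natriuretic peptide B gene, had no count in the lung pair and 55.6 CPM in the mixed library, against 128 to 409 CPM (median 201) in heart, so its heart median was at least 243-fold higher than the pair. Pln, phospholamban, which restrains the calcium pump, was at 2.89 CPM in control male 4, 4.69 in obese male 1 and 1354 in control female 4, against 2083 to 3853 (median 3188) in the heart libraries. The atrial genes varied more among the heart libraries themselves. Myl7, the atrial regulatory light chain, ran from 62.7 to 905 CPM in heart, and the mixed library at 185 CPM lay within that range. Nppa, atrial natriuretic peptide, ran from 419 to 2937 CPM in heart, and the lung pair had 1.11 and 0.827 CPM. Nr2f2, a regulator of atrial and venous identity that lung mesenchyme also expresses, was the atrial member higher in the lung-rich libraries (234, 245 and 149 CPM against 26.1 to 55.0 CPM, median 37.6).

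Calcium handling genes were higher in heart for 15 of 23 members and channel and junction genes for 14 of 26 passing. Casq2, the calcium store protein of the sarcoplasmic reticulum, was at 3.56 CPM in control male 4, 4.69 in obese male 1 and 599.8 in control female 4, against 948 to 1455 (median 1349.6) in the heart libraries. Ryr2, the release channel, was at 20.9 CPM in control male 4, 23.7 in obese male 1 and 333 in control female 4, against 476 to 847 (median 706) in the heart libraries. Kcne1, a subunit of the slow potassium channel, had no count in the lung pair, and its heart median of 199.8 CPM was at least 242-fold higher. Members with roles in many cells differed less, as Cacna1c, the L-type channel also found in smooth muscle, with a heart median 3.09-fold higher, or overlapped, as Stim1, a calcium sensor. Cacna1d, a related L-type channel, was higher in the lung-rich libraries (78.5, 106 and 60.0 CPM against 4.64 to 13.1 CPM, median 8.97).

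Cardiac transcription factors were higher in heart for 17 of 36 members passing and higher in the lung-rich libraries for 5, namely Gata5, Tbx2, Tbx3, Tbx5 and Nfatc4. Hand2, a regulator of ventricular growth, was at 1.56 CPM in control male 4, 1.10 in obese male 1 and 48.4 in control female 4, against 101 to 169.6 (median 136) in the heart libraries. Hand1 had no count in the lung pair, and its heart median of 5.58 CPM was at least 6.74-fold higher. Esrrb, Esrrg and Ppargc1a, regulators of mitochondrial genes, were higher in heart, Ppargc1a at 6.00, 12.4 and 58.3 CPM against 85.9 to 134 CPM (median 113). Mef2a and Tead1, which act in many muscles, overlapped (209, 236 and 282 CPM against 186 to 321 CPM, median 295, and 154, 156 and 191 CPM against 149 to 232 CPM, median 196).

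Mitochondrial and fuel genes were higher in heart almost throughout, including subunits that every cell needs. Of the respiratory chain 72 of 74 members were called higher in heart, and of cardiac energy supply 40 of 46. Cox6a2, a muscle form of a cytochrome oxidase subunit, was at 2.22 CPM in control male 4, 4.14 in obese male 1 and 169.5 in control female 4, against 411 to 718 (median 557) in the heart libraries. Its counterpart of other tissues, Cox6a1, was at 141 CPM in control male 4, 109 in obese male 1 and 181 in control female 4, against 310.1 to 421 (median 375) in the heart libraries. Heart medians of Cox7a1, Cox7a2 and Atp5b were 47.4, 4.61 and 6.27-fold higher. In the Cox6a and Cox7a pairs the muscle form thus differed by more than its counterpart. The chain gene higher in the lung-rich libraries was Cox4i2, a subunit known from lung (41.4, 36.4 and 20.9 CPM against 7.44 to 17 CPM, median 11.9).

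Among fuel genes, Ckm, muscle creatine kinase, was at 15.6 CPM in control male 4, 14.1 in obese male 1 and 1211 in control female 4, against 2381 to 3488 (median 3270.2) in the heart libraries. Mb, myoglobin, was at 2.45 CPM in control male 4, 1.65 in obese male 1 and 909 in control female 4, against 1739.5 to 3587 (median 2539) in the heart libraries. Cpt1b, which admits fatty acids to mitochondria, had 0.2 and 3.22 CPM in the lung pair and 369.6 to 603 CPM (median 544) in heart. Uptake genes did not separate as cleanly. Cd36, a fatty acid transporter of muscle and capillaries, overlapped (331, 485 and 389 CPM against 334 to 553 CPM, median 488), and Slc27a6, another fatty acid carrier, was higher in the lung-rich libraries (191, 146 and 108 CPM against 0.745 to 3.45 CPM, median 1.45). Of the load and stress genes 7 of 13 were higher in heart, such as Ankrd1 (5.56, 9.93 and 520.5 CPM against 616 to 1739.9 CPM, median 1319.6), while Fhl1, a LIM protein, was higher in the lung-rich libraries (1074, 1235 and 756 CPM against 144 to 298 CPM, median 224).

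Cell types found in both organs divided between the sides. Of the general endothelium list 9 of 18 members were higher in the lung-rich libraries and 1, Fabp4, in heart. Cldn5, a junction protein of endothelium, was at 278 CPM in control male 4, 277 in obese male 1 and 166 in control female 4, against 28.7 to 58.3 (median 46.5) in the heart libraries. Fabp4, a fatty acid carrier of heart capillaries, was at 7.56 CPM in control male 4, 14.3 in obese male 1 and 148 in control female 4, against 289 to 486 (median 393) in the heart libraries. Lymphatic markers were higher in the lung-rich libraries for 4 of 7 members, with Lyve1 at 209, 257 and 147 CPM against 23.4 to 49.7 CPM (median 35.9), but Prox1, the lymphatic regulator that heart muscle also expresses, was higher in heart (0.889, 0.276 and 4.12 CPM against 8.12 to 20.5 CPM, median 14.2).

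Matrix and smooth muscle genes gave mixed counts. Fibroblast matrix genes were higher in the lung-rich libraries for 6 of 20 members with none in heart, but the other scalings called 4 higher in heart. Eln, elastin, was at 5939 CPM in control male 4, 6190.1 in obese male 1 and 4363 in control female 4, against 272 to 2386 (median 635) in the heart libraries, and Mfap4, an elastin-binding protein, at 3446 CPM in control male 4, 3541 in obese male 1 and 1767 in control female 4, against 40.1 to 112 (median 83.6) in the heart libraries. Col1a1, the main fibrillar collagen chain, overlapped (2055, 1873 and 2388 CPM against 1573 to 3729 CPM, median 2218). Of the smooth muscle list 7 of 13 were higher in the lung-rich libraries, with Mylk, myosin light chain kinase, at 687, 721 and 485 CPM against 27.7 to 53.3 CPM (median 41.0), and Rgs5, of heart pericytes, was higher in heart (44.2, 31.4 and 95.04 CPM against 115 to 212 CPM, median 167). Epicardium and valve genes divided into 4 higher in the lung-rich libraries and 3 in heart of 17 passing. Msln, of the mesothelium that covers both organs, was at 374, 479.5 and 219.6 CPM against 16.9 to 63.2 CPM (median 41.1), and Wt1, of the epicardium, was at 3.56, 4.14 and 13.7 CPM against 24.0 to 44.3 CPM (median 33.0).

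Macrophage genes were called for 6 of 14 members passing, higher in the lung-rich libraries, and for 3 under the other scalings. Lyz2, lysozyme of macrophages that type 2 cells also make, was at 346 CPM in control male 4, 1101 in obese male 1 and 275 in control female 4, against 11.4 to 151 (median 20.6) in the heart libraries. C1qa, a complement gene of tissue macrophages, overlapped (19.8, 23.4 and 16.8 CPM against 10.4 to 43.8 CPM, median 17.1). Of 9 neutrophil and mast cell genes passing, 1 was higher in heart, the mast cell tryptase Tpsb2 (2.22, 1.10 and 3.77 CPM against 5.48 to 13.8 CPM, median 8.50). Erythroid genes had no call in either direction, and Hba-a1, an alpha globin with a near-identical copy that can share its reads, ran from 1067 to 7167 CPM in heart with the lung-rich libraries at 4435, 3611 and 4909 CPM.

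Markers of other organs were also read in the lung-rich libraries. Summed liver markers were at 1267, 2118 and 1134 CPM there (control male 4, obese male 1, control female 4), within the 36.3 to 73888 CPM of the heart libraries, and none of 16 was called. Of the liver markers, Trf, transferrin, which other cells also make, was at 804, 1197 and 618 CPM against a heart median of 111 CPM. Thymus and lymphocyte markers summed to 79.6, 88.2 and 54.9 CPM, with most of it from Tcf7 (70.7, 71.4 and 40.5 CPM), and the thymus markers Ptcra, Dntt, Psmb11 and Foxn1 had no count there. Gut markers summed to 6.18 to 11.9 CPM, with no count of Cdx1, Cdx2, Gkn1 and Pdx1. Cartilage markers summed to 109 to 128 CPM against 50.8 to 370 CPM in heart, with 2 of 11 passing higher in the lung-rich libraries and 1 in heart. Neuronal and Schwann cell markers summed to 57.3 to 84.7 CPM against 20.7 to 77.1 CPM, with 1 of 5 called, Stmn2. The skeletal muscle and brown fat lists had 3 of 8 and 4 of 5 members higher in heart, among them genes that heart shares, such as Ckm and Fabp4, while Myh4 of fast skeletal fibres and Ucp1 of brown fat had no count in the lung-rich libraries.

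Interferon targets had 3 of 29 members passing higher in the lung-rich libraries (Usp18, Ifih1 and Ifi44) and the endoplasmic reticulum folding list 2 of 25. Cell cycle genes were higher in heart for 5 of 29, and for 10 or 11 under the other scalings. Rrm2, a subunit of the enzyme that makes deoxynucleotides, was at 57.1 CPM in control male 4, 20.7 in obese male 1 and 81.3 in control female 4, against 108 to 264 (median 169) in the heart libraries. Of 18 housekeeping genes 13 overlapped or fell short of 2-fold, but Actb was higher in the lung-rich libraries (4253, 3573 and 2896 CPM against 1249 to 1981 CPM, median 1323) and Gapdh in heart (178, 140.4 and 389.9 CPM against 851 to 1144 CPM, median 977). The median log2 difference of the housekeeping list was 0.29, beside 0.23 over the 12673 genes with a median of at least 1 CPM on both sides.

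The mixed library lay between the sides in a like proportion for most strongly differing genes. Its position was scaled so that 0% is the heart median and 100% the mean of the lung pair. Over 312 genes at least 8-fold higher in the lung pair the median position was 55.3%, with quartiles of 50.4 and 60.1%, and 310 of them lay between the ends. Over 242 genes at least 8-fold higher in heart it was 60.6%, with quartiles of 54.3 and 64.5%, and 241 lay between. List medians ran from 51.2% for 18 surfactant genes to 64.3% for 24 genes of energy supply and 66.7% for 12 of the respiratory chain. Among lists of at least 10 such genes no median lay outside these values. Individual genes stood apart, among them Lyz1, a lysozyme of type 2 cells, at 32.2%, Chil1, a chitinase-like protein, at 35.7%, and Inmt, a methyltransferase of lung fibroblasts, at 8.17%. The lung pair itself differed in these 3 genes, as given below.

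**Figure D3:**
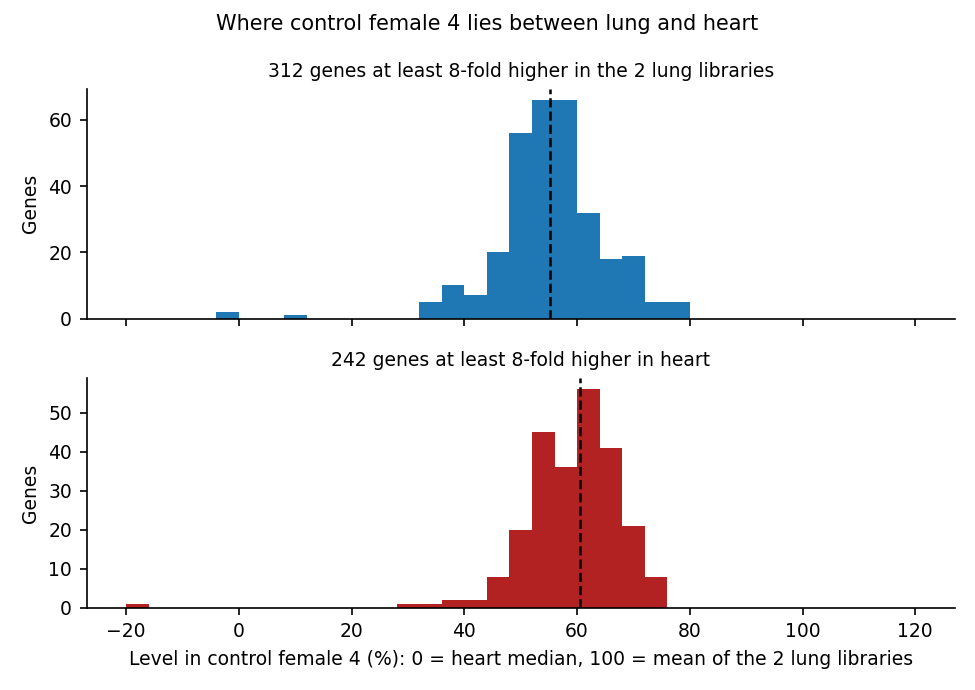
Number of genes (vertical axes) by the level of control female 4, in percent of the way from the heart median (0) to the mean of the lung pair (100). The dashed lines mark the medians, 55.3% for 312 genes higher in the lung pair (top) and 60.6% for 242 genes higher in heart (bottom), and the outermost bars include genes beyond the axis.

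The sex-linked genes of the mixed library matched its label. Xist, the RNA that silences an X chromosome, was at 648 CPM in control female 4 and at 0.667 and 0.276 CPM in the lung pair, both labelled male. Y-linked Eif2s3y and Ddx3y had no count in the mixed library, against 51.1 and 66.5 CPM, and 51.8 and 71.4 CPM, in the lung pair. Besides Xist, the genes of at least 200 CPM that most exceeded both sides were Erdr1, Lars2, Hbb-bs and Hbb-b1, by 1.35 to 1.54 times the higher of the 2 sides, and for these 4 the highest heart library was above the mixed library.

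Heart muscle transcripts in the lung pair were not in the proportions of the heart libraries. Myh6 stood at 0.902 and 0.991% of the heart median in control male 4 and obese male 1, and Tnnt2 at 0.415 and 0.437%. The ventricular light chain Myl2 was at 0.0361% (12 counts) and 0.0262% (7 counts), and Myl3 at 0.0567 and 0.0859%. Of the light chains of atrial muscle, Myl7 was at 5.29% (112 counts) and 7.08% (121 counts) and Myl4 at 2.76 and 3.64%. Mybphl, a myosin-binding protein of atria and conduction tissue, was at 6.35 and 7.09%. The 2 libraries gave the same order for these genes. The lists as a whole did not split by chamber. In the ventricular list Hey2, a transcription factor, was at 4.42% (25 counts) and 7.89% (36 counts), Cited1, a transcriptional coregulator, at 3.86 and 1.60%, and Mpped2, a phosphoesterase, at 73.0 and 51.7%. In the atrial list Nppa was at 0.0791 and 0.0588% and Kcnj3, an atrial potassium channel, at 0.620 and 0.769%. Atrial content varied in the heart libraries that form the reference, as the range of Myl7 shows. Which cells gave these transcripts was not tested.

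**Figure D4:**
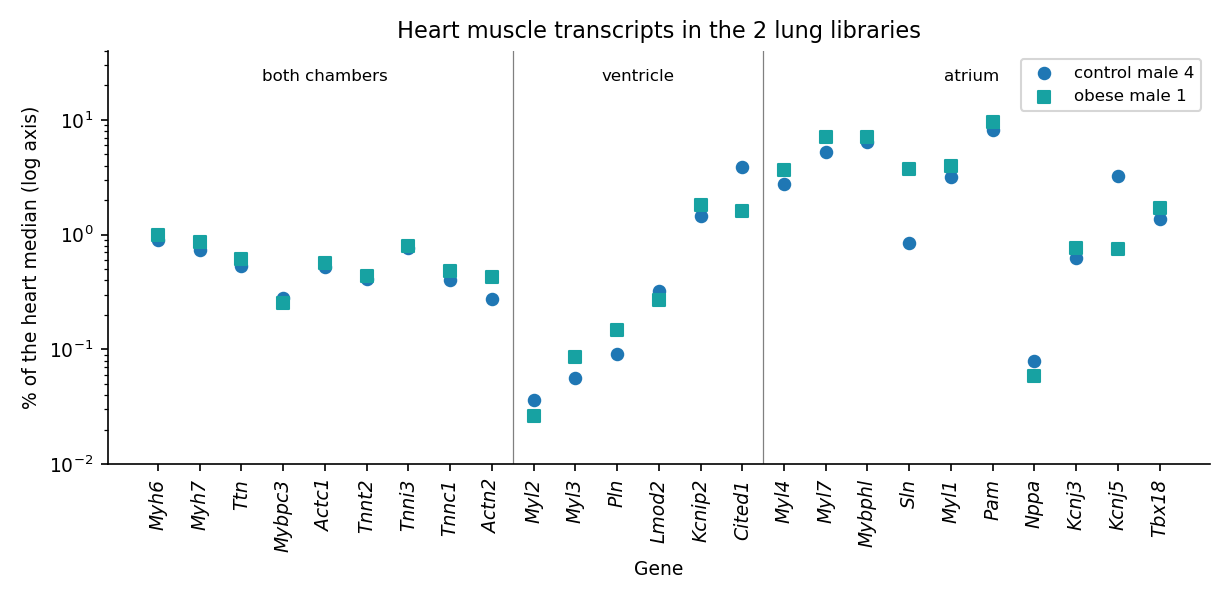
Level of 25 chosen heart muscle genes in the lung pair, in percent of the median of the 17 heart libraries on a log axis. Labels place them under both chambers, ventricle or atrium. The genes were picked from the lists, and members left out varied more widely. Among these were ventricular Irx4 (no count), Hey2 (4.42 and 7.89%) and Mpped2 (73.0 and 51.7%), and atrial Gja5 (81.6 and 102%). Ventricular Myl2, Myl3 and Pln lay between 0.0262 and 0.147%, and the atrial genes Myl7 and Mybphl between 5.29 and 7.09%, with Nppa at 0.0588 and 0.0791%.

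The lung pair agreed for most genes. Of 5225 genes with at least 50 CPM in either library, 71 (1.36%) differed at least 2-fold, 38 higher in control male 4 and 33 higher in obese male 1. With 1 library each there is no replicate check, and the intervals below cover counting error only. Inmt was at 174 CPM in obese male 1 and 10.4 CPM in control male 4, 16.7 times as high (95% interval 12.4 to 22.9), and at 7.55 CPM in the mixed library. Lyz1 was at 1672 and 473 CPM (3.53 times, 3.36 to 3.71) and Lyz2 at 1101 and 346 CPM (3.18 times, 3.0 to 3.38). Chil1 was at 733 and 238 CPM, and Spink5, a protease inhibitor of epithelia, at 106 and 27.8 CPM. The mixed library lay below control male 4 for Inmt, Lyz1, Lyz2, Chil1 and Spink5. Igfbp3, a binding protein of insulin-like growth factors, was at 116 CPM in obese male 1 and 28.0 CPM in control male 4. Other measures moved with these genes. Rn45s, the ribosomal RNA precursor, was at 8456 CPM in obese male 1 and 3210.4 CPM in control male 4 (2.63 times), summed macrophage markers at 1508 and 645 CPM and summed liver markers at 2118 and 1267 CPM. Their part in the differences was not tested.

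The 10 genes with the largest ratio in favour of control male 4 were Uhrf1, Tubb6, Tpx2, Pclaf, Foxm1, Mcm5, Racgap1, Cdk1, Hsph1 and Ube2c, most of them genes of replication or mitosis. Uhrf1, which maintains DNA methylation through replication, was at 67.1 CPM in control male 4 and 17.1 CPM in obese male 1, 3.93 times as high (2.98 to 5.25). Foxm1, a regulator of mitosis, was at 67.4 and 22.1 CPM, and Cdk1, the kinase of mitotic entry, at 72.3 and 25.1 CPM. The summed cell cycle list stood at 1856 CPM in control male 4, 773 CPM in obese male 1 and 1897 CPM in the mixed library, against 2103 to 4376 CPM in heart. Chaperones of the endoplasmic reticulum followed, with a sum of 6313 CPM in control male 4 and 4206 CPM in obese male 1, and Hspa5 at 911 and 442 CPM. The 2 libraries differ in the dam's diet and in the number that leads their titles, which cannot be told apart with 1 library each.

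The transcript forms of some genes also differed. How the authors' estimates divided reads between transcripts is not given in the sources used here, so these shares carry an unknown error. Among 2552 genes with several transcripts and at least 50 estimated counts in each library, 77 (3.02%) had a transcript whose share differed by at least 40 percentage points without overlap between the lung pair and heart. Atp2a2, the calcium pump of the sarcoplasmic reticulum, had 59.2 and 53.6% of its counts on NM_001110140 (chr5:122456324-122502225, minus strand) in the lung pair, 6.86% in the mixed library and 0.381 to 2.01% in heart. In heart 90.9 to 94.0% lay on NM_009722 (chr5:122453513-122502225), which reaches further at its 3′ end.

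Pkm, pyruvate kinase, had 90.9 and 90.1% of its counts on NM_011099 in the lung pair, 34.8% in the mixed library and 11.6 to 24.3% in heart. Its 2 transcripts, NM_011099 and NM_001253883, span the same stretch, chr9:59656368-59679375 on the plus strand. Naca, a chaperone of new proteins with a long muscle form, had 97.2 and 93.3% on NM_013608 in the lung pair and 6.29 to 13.3% in heart. Further sarcomere and cytoskeleton genes followed. Capzb, which caps actin filaments, had 89.9 and 88.0% on NM_009798 in the lung pair and 17.3 to 38.0% in heart, and Tpm2, a tropomyosin, had 70.3 and 72.8% on NM_001277876 against 9.26 to 20.5%. Enah, an actin regulator, had 80.7 and 73.7% on NM_001083121 against 3.59 to 20.2%. Fxr1, an RNA-binding protein with muscle forms, had 67.0 and 64.3% on NM_008053 against 13.7 to 30.9%. For Capzb, Enah and Fxr1 the mixed library lay between, at 62.5, 51.4 and 39.1%.

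Maternal diet was tested over the 17 heart libraries, a contrast that did not choose the sides. In all 2 of 12789 genes (0.0156%) passed an adjusted p of 0.05 in edgeR's quasi-likelihood test, and 1552 had an unadjusted p under 0.05. Clic5 (chr17:44188572-44280168), a chloride channel protein of type 1 cells and of other tissues, was at 79.2 to 113 CPM in 8 control and 109 to 151 CPM in 9 obese libraries. Its mean was 97.7 ± 11.0 CPM (SD, n = 8) in control and 128 ± 13.4 CPM (SD, n = 9) in obese, a log2 difference of 0.40 (SE 0.0618, edgeR adjusted p 0.0393). Fasn (chr11:120805958-120824547) was at 205 to 256 CPM in control and 147 to 199 CPM in obese libraries, 225 ± 14.4 and 171 ± 17.4 CPM on average (SD, n = 8 and 9), a log2 difference of -0.39 (SE 0.0641, edgeR adjusted p 0.0393). The groups overlapped for Clic5 and not for Fasn. Both genes are among those called higher in the lung-rich libraries.

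Both calls depended on which libraries entered. With the 3 lung-rich libraries included, edgeR called 0 of 12924 genes (569 had an unadjusted p under 0.05), while Clic5 had a log2 difference of 0.02 (adjusted p 0.999) and Fasn of -0.69 (adjusted p 0.991). The biological coefficient of variation in edgeR was 0.385 over 20 libraries, 0.184 over the 17 heart libraries and 0.126 over the 15 left when control female 3 and control female 5 were also taken out. In that fit of 15 libraries 3 genes passed, Clic5 had an adjusted p of 0.0548 and Fasn one of 0.0686 in edgeR. Leaving out 1 heart library at a time moved the count from 0 (without control male 1, 2, 3 or 5, or obese male 3, 4 or 5) to 42 (without control female 1). Which fetuses shared a dam is not labelled, so these p-values describe the spread among the sampled fetuses and no more.

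Genes that set heart apart from the lung-rich libraries leaned upward in obese heart libraries at a level below the adjusted threshold. These genes were called on the same heart libraries and can rise and fall together. Their counts are thus a description and were not tested as a set. Of 1206 such genes tested, 268 were higher and 29 lower at an unadjusted p under 0.05 in edgeR, against 795 higher and 757 lower among the 12789 genes tested. Their median log2 difference was 0.08, beside -0.01 over the genes tested. Of 1637 tested genes higher in the lung-rich libraries 86 were higher and 82 lower. Thin filament and Z disc genes had 15 of 32 higher and 0 lower, calcium handling 11 of 23, energy supply 20 of 46 and the respiratory chain 32 of 74 higher, each with 0 lower, and no member of these lists passed the adjusted test. Endothelial lists, whose called members were mostly higher in the lung-rich libraries, had like counts, with 9 of 18 general endothelium genes higher and 0 lower, and 8 of 21 lung capillary genes higher and 1 lower. Some other heart lists leaned less or not at all. Channel and junction genes had 5 of 26 higher and 2 lower, and cardiac transcription factors 4 of 36 higher and 2 lower. Ventricular genes had 3 of 13 higher and 2 lower, and atrial genes 0 of 19 in either direction. Some lists outside heart leaned downward. Cell cycle genes had 0 of 29 higher and 9 lower, and surfactant lipid genes 1 of 20 higher and 5 lower. Endoplasmic reticulum folding genes had 1 of 25 higher and 5 lower. Without the liver-rich and thymus-rich libraries, both control, the counts for heart-side genes were 163 higher and 58 lower. Over the genes tested, the counts were then 682 higher and 582 lower. In that fit the respiratory chain had 15 higher, energy supply 8, thin filament and Z disc genes 14, calcium handling 6 with 1 lower, general endothelium 7 and lung capillary genes 6. Ventricular genes had 1 higher and 3 lower there, channel and junction genes 2 and 4, and cardiac transcription factors 1 and 4. Cell cycle genes had 0 and 4, surfactant lipid genes 1 and 3, and endoplasmic reticulum folding genes 2 and 3. The part of those 2 libraries in the lean was not tested.

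The sum of 10 heart muscle genes (Myh6, Myh7, Myl2, Myl3, Tnnt2, Tnni3, Actc1, Mybpc3, Actn2 and Ttn) was 56490 to 78380 CPM in control and 71290 to 76820 CPM in obese heart libraries, so obese libraries lay within the control range. On the log2 scale of CPM plus 1 the obese mean was 0.12 higher (two-sided exact permutation test over 24310 arrangements, p = 0.0766, n = 8 and 9). Without control female 3 and control female 5, the heart muscle level in heart libraries by diet differed by 0.03 (exact permutation p = 0.372). Those 2 libraries were the lowest controls.

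Traces of lung transcripts below the Sftpc limit were lower in obese than in control heart libraries. Heart libraries were kept for low Sftpc, which was high in the same libraries as the genes summed here. This sum is thus not independent of that choice. The sum of 12 lung genes other than Sftpc (Sftpb, Sftpa1, Sftpd, Scgb1a1, Scgb3a2, Nkx2-1, Napsa, Slc34a2, Lamp3, Cxcl15, Cldn18 and Ager) was 6.02 to 13.5 CPM in control (9.01 ± 2.78, SD, n = 8) and 3.26 to 11.5 CPM in obese libraries (5.07 ± 2.53, SD, n = 9), beside 12690, 16160 and 7526 CPM in control male 4, obese male 1 and control female 4. The difference was -0.76 on the log2 scale of CPM plus 1 (two-sided exact permutation test, p = 0.00370, adjusted over the 2 sums 0.00740), and 8 of 9 obese libraries lay below the lowest control. The exception was obese female 3 at 11.5 CPM, the heart library with the highest Hox sum. It had Sftpc at 0.189 CPM and no count of Sftpb or Scgb1a1. Without Ager and Napsa no obese library passed 2.27 CPM, so most of its sum came from those 2 genes. Within sexes the difference was -0.93 in males (exact permutation p = 0.0286, 4 against 4, the smallest p that size allows) and -0.62 in females (exact permutation p = 0.127, 4 against 5). The permutations of this sum and of the heart muscle sum treated each library as separate, though most share a leading title number. If such libraries share a dam, these p-values are too small. They describe the spread among the sampled fetuses and no more.

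A few genes made up most of this trace. Ager gave 94 counts over the control and 121 over the obese libraries, and Napsa 36 and 55. The airway genes Scgb1a1 and Scgb3a2 together gave 5 and 12 counts in the control libraries and 0 in the obese. Without Ager and Napsa, the 2 members with most counts in heart, the sum was 1.81 to 8.12 CPM in control and 0.223 to 2.27 CPM in obese libraries, a difference of -1.24 (exact permutation p = 0.000247). This shorter sum was not planned. The 2 genes left out differed least by diet, with pooled control and obese levels of 3.34 and 2.58 CPM for Ager and 1.28 and 1.17 CPM for Napsa. Its p-value is thus no added support for the planned sum. Control libraries were also shallower, at 1.48 to 4.27 M estimated counts against 3.46 to 7.06 M, and the part of depth in the trace was not tested.

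**Figure D5:**
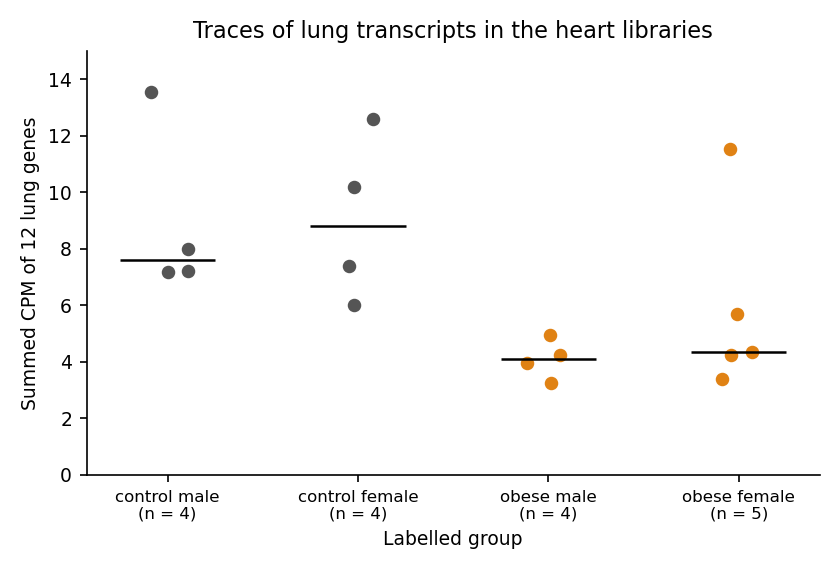
Summed CPM of 12 lung genes in each of the 17 heart libraries (points) by labelled group, with the group median as a line. The obese male libraries lie below the control male libraries, and obese female 3 at 11.5 CPM, most of it from Ager and Napsa, lies among the control libraries.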

How the data were processed

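Polyadenylated RNA from hearts of near-term mouse fetuses was sequenced from 20 libraries, as the labels state. The deposited table holds the authors' estimated counts for 40147 RefSeq transcripts. A second deposited table of 33228 transcripts holds the authors' normalized signal, which equals those counts times 1 factor per library plus a small constant. Per the submitters' processing notes the build was mm10 and the tools were STAR 2.5.3a, CASAVA 1.8 and Partek, with no role or order given. How reads were split between transcripts is not given in the sources used here, and a split would move shares within a gene more than gene sums.

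Counts were summed by gene symbol (24796 genes), divided by library totals for CPM and rounded for count tests. Genes were kept by edgeR's filterByExpr (minimum count 10). The sides were described, not tested. The members, the 43 gene lists and the limits were chosen with earlier results of these data known. Named genes were list members, the 25 largest folds of called genes on each side, and the 10 largest ratios in each direction between control male 4 and obese male 1. Diet was tested over the heart libraries with edgeR 4.0.16 (quasi-likelihood, robust, TMM, Benjamini-Hochberg adjustment) in R 4.3.3, with sums compared by exact permutation in scipy 1.17.1. DESeq2 1.42.0 and limma-voom 3.58.1 were alternatives. Transcript shares and promoter motifs were chosen after the data were seen, as were the genes named from them. On simulated counts of 12973 genes, the diet test recovered 99 of 100 genes changed 2-fold and 100 of 100 changed 4-fold, with 15 false calls. The simulation gave every gene the same spread and held no library rich in another tissue. Changes as small as those of Clic5 and Fasn (log2 0.40 and -0.39) were not simulated, so their recovery is unknown. Intervals and limits for a count of 0 (3 counts) cover counting error only. Plots used matplotlib 3.10.9 and tables pandas 2.3.3 in Python 3.11.15.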

Additional observations from a re-analysis of the deposited data

Results flagged for a closer look

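Within each combination of diet and sex on the heart side, a library was picked out when its gap to the nearest other, on the log2 scale, passed Dixon's 95% critical value. Over the 24 groups looked at, chance alone picks about 1 in 20. Control male 3, the shallowest library, had a lung transcript sum of 13.5 CPM, with the other control males at 7.17 to 7.97 CPM, and a summed thymus and lymphocyte list of 29.8 CPM, with the others at 15.9 to 16.5 CPM. Control female 5 had a thymus and lymphocyte sum of 2220 CPM, with the other control females at 17.7 to 32.2 CPM. Atrial genes were low in control female 3 (1903 CPM, others 5141 to 5695 CPM) and in obese male 4 (2351 CPM, others 4634 to 5015 CPM). Obese male 5 had a heart muscle sum of 71830 CPM, with the other obese males at 76260 to 76820 CPM.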

How the results depend on the processing

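At a fold of at least 4, 1189 genes were higher in the lung-rich libraries and 651 in heart, in place of 2272 and 1209 at 2-fold. These counts ran from 2149 to 2784 and from 1039 to 1723 when 1 lung-rich or heart library was left out in turn, and they were highest without control female 4, the mixed library. Of 2408 list counts under the other settings, 2321 stayed within 1.5 times. For diet, DESeq2 called 112 genes, no filter beyond 1 count gave 4, all 20 libraries gave 0 and leaving out 1 heart library gave 0 to 42, in place of 2. The cause was not tested. Besides the libraries named with that result, 10 genes passed without obese female 1, 7 without control female 5 and 4 without control female 3, and 1 without control female 2, obese female 2, obese female 3 or obese male 2. The heart muscle level in heart libraries by diet, a difference of 0.12, passed under TMM scaling (0.13, exact permutation p = 0.0448), without control male 2 (0.15, exact permutation p = 0.0259) and without control male 3 (0.14, exact permutation p = 0.0411), and ran from 0.0785 to 0.146 with 1 library left out. The lung transcript trace in heart libraries by diet ran from -0.90 to -0.67 in the same way, and was -0.64 without control female 3 and control female 5. No paired analysis was possible because replicate numbers follow accession order and the numbers in the titles each occur under 1 diet only. With 3 lung-rich libraries, and counts of 0 to 14 for Sftpc in heart libraries, depth limits what can be said of single traces.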
